A study of Mus musculus with 5 samples.

Results

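The cells described here are cycling epithelial cells of mouse mammary tumours, defined by their own transcripts. A cell counted as epithelial when Krt8, Krt18 and Epcam together gave at least 15 UMIs per 10000 UMIs of that cell. It counted as cycling when Mki67, Top2a, Cdk1, Birc5, Ube2c and Ccna2 together gave at least 5 per 10000. A UMI, or unique molecular identifier, marks 1 captured transcript. This rule found 1306 cells among 10959 epithelial cells and 15958 cells in all, which is 11.9% of the epithelial cells and 8.18% of all cells. The 9653 other epithelial cells of the same libraries served as the comparison.

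The tumours came from PyMT mice, which carry the polyoma virus middle T antigen as an oncogene in the mammary epithelium. All 5 libraries therefore share that transgene, and none came from normal gland. Fresh 10x 1 and fresh 10x 2 were fresh digests run on the 10x Genomics 3' v2 droplet system. Stored 10x was a digest kept for 24 h before the same system. BD 1, a fresh digest, and BD 2 were run on BD Rhapsody, which captures cells in microwells. The title of BD 2 says fresh while its files are named for 24 h, so no storage state was assumed for it. Age, strain and the number of animals or tumours are not given in the labels used here, so p-values measure only the spread between these 5 libraries. Values below are given in the order fresh 10x 1, fresh 10x 2, stored 10x, BD 1 and BD 2 unless stated otherwise.

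A dividing cell copies its DNA in S phase, condenses and separates its chromosomes in mitosis, and spends gaps called G1 and G2 before each of these. Cyclins switch on cyclin-dependent kinases, whose activity frees E2F factors from the retinoblastoma proteins and starts the transcription of DNA synthesis genes. The genes of G2 and mitosis follow later, and many of their promoters carry CCAAT boxes, bound by NF-Y, and a cell cycle homology region (CHR), bound by complexes containing LIN54 and, in dividing cells, B-MYB and FOXM1. The 6 genes of the cycling gate belong mainly to this later wave. Mki67 encodes the Ki-67 coat of mitotic chromosomes, Top2a untangles DNA, and Cdk1 is the mitotic kinase. Ccna2 encodes cyclin A, Birc5 the survivin subunit of the chromosomal passenger complex, and Ube2c a ubiquitin-conjugating enzyme that works with the anaphase-promoting complex.

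Some sequence features were more frequent among the mitotic genes and others among the DNA synthesis genes. Examples printed here are 4 promoters, of the gate genes Cdk1 and Ube2c, the mitotic cyclin gene Ccnb2 and the helicase gene Mcm6. They are RefSeq sequence on build GRCm38.p6, from 200 bases before the annotated start to 10 bases after it, in the direction of the gene. Capitals mark the letters CCAAT, the CHR core TTTGAA and the E2F letters TTTCCCGC or TTTGGCGC, read on both strands.
Cdk1 (chr10:69352903-69353112, minus strand): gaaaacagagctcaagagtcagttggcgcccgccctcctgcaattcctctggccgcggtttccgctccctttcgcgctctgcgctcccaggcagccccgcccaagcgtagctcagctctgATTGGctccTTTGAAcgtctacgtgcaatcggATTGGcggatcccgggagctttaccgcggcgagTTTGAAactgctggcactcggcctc
Ube2c (chr2:164769729-164769938, plus strand): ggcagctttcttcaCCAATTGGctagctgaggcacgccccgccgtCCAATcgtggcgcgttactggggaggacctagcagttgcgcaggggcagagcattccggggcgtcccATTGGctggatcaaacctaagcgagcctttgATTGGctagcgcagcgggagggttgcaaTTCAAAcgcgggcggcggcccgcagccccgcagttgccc
Ccnb2 (chr9:70421545-70421754, minus strand): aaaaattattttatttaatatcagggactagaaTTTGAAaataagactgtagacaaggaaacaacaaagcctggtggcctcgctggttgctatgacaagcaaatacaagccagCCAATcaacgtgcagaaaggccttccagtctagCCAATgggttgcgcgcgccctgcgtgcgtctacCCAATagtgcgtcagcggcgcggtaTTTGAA
Mcm6 (chr1:128359696-128359905, minus strand): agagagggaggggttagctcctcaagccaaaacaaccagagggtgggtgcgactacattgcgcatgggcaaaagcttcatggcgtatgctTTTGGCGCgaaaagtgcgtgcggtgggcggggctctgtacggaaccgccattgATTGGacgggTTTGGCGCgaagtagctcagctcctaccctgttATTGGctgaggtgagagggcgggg

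The Cdk1 stretch held 2 CCAAT and 2 CHR matches, the latter beginning 71 and 15 bases before the start. In Ube2c 5 CCAAT matches, 2 of which share 2 bases, preceded 1 CHR match that began 29 bases before the start. Ccnb2 had 3 CCAAT and 2 CHR matches, with 1 CHR beginning 4 bases after the start. The Mcm6 stretch differed from these in having 2 E2F matches, 110 and 47 bases before the start, with 2 CCAAT matches and 0 CHR matches. In the windows of 300 bases (250 before the start and 50 after it), 4 of the 5 gate genes with an entry held both CCAAT and TTTGAA. Birc5 had neither in its window, and Ccna2 had no entry. Not every gene carried the features of its group. Among genes not printed, the window of Mcm5 held 1 E2F match and those of Rrm2 and Pcna 0. The window of Plk1 held 1 TTTGAA and that of Ccnb1 0.

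The same search over the gene lists used below gave the contrast as shares of genes. Of the 59 genes of the mitotic lists 51 had an entry, and 64.7% of these held TTTGAA, 78.4% CCAAT and 56.9% both. Of the 35 genes of origin licensing and DNA synthesis 29 had an entry, and 13.8% held TTTGAA, 65.5% CCAAT and 10.3% both. Among 9818 genes of the expression comparison (gate genes included) with an entry, TTTGAA was present in 14.1%, CCAAT in 43.1% and both in 5.79%. Over all 27025 genes with an entry these shares were 20.2%, 41.1% and 7.97%. E2F letters occurred in 34.5% of the DNA synthesis genes, 1.96% of the mitotic genes, 3.47% of the compared genes and 1.80% of all genes. The median GC content of the windows was 59.0% for the mitotic genes, 59.3% for the DNA synthesis genes and 61.0% for the compared genes. These are matches of letters, and no binding was measured.

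**Figure D1:**
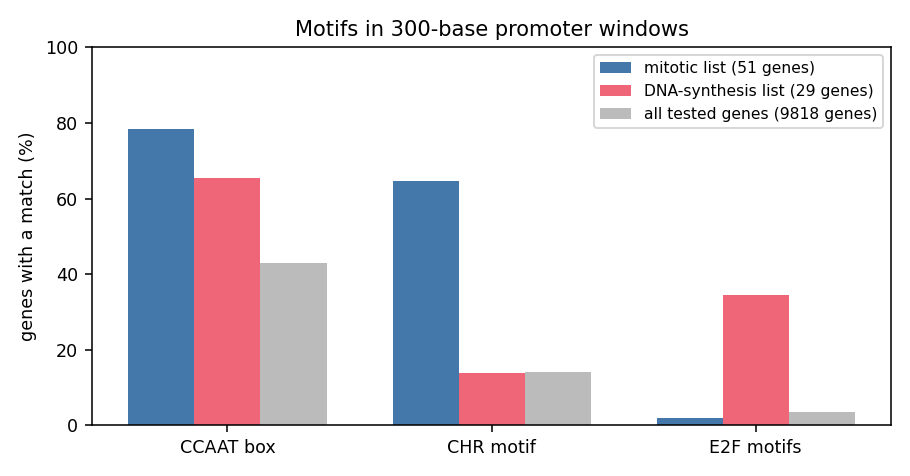
Share of genes whose 300-base promoter window (250 bases before the start, 50 after) holds each motif on either strand, in percent, for 51 mitotic genes, 29 DNA synthesis genes and 9818 compared genes. The CHR motif marked 64.7% of the mitotic genes against 14.1% of the compared genes, while E2F motifs marked 34.5% of the DNA synthesis genes.

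The libraries held 29166129 to 59957945 UMIs each. They had 1396, 1430, 2971, 2528 and 2634 epithelial cells, which made up 62.9% to 74.3% of the cells of a library. Cell barcodes shared between libraries were few: 1, 1 and 5 for the pairs of 10x libraries, 24 for the pair of BD libraries and 0 across platforms. Markers of other cell types (35 genes of macrophages, lymphocytes, neutrophils, fibroblasts, endothelium and mural cells) summed to 1.53, 2.41, 5.75, 3.57 and 2.40 UMIs per 10000 in the cycling cells. In the other epithelial cells they summed to 2.59, 2.30, 5.91, 7.18 and 3.55 per 10000.

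Cycling cells numbered 161, 183, 353, 274 and 335. Their shares of the epithelial cells were 11.5% (exact Clopper-Pearson 95% interval 9.90 to 13.3), 12.8% (11.1 to 14.6), 11.9% (10.7 to 13.1), 10.8% (9.65 to 12.1) and 12.7% (11.5 to 14.1). The intervals, which cover counting error only, overlapped for every pair of libraries, and the share in the stored library lay between those of the 2 fresh 10x libraries. With every cell thinned to 5000 UMIs before the gates, and shallower cells left out, the shares were 11.6%, 13.7%, 12.8%, 11.6% and 13.1%. The order of the libraries depends on the gates: at an epithelial gate of 30 UMIs per 10000 the shares were 9.88%, 11.0%, 8.23%, 7.13% and 7.14%, and with at most 20% mitochondrial UMIs BD 2 stood at 17.1% against 11.6% in fresh 10x 1. Among cells below the epithelial gate, 8.10%, 8.69%, 9.52%, 11.3% and 11.3% passed the cycling gate. With 1 stored library, storage has no test here.

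**Figure D2:**
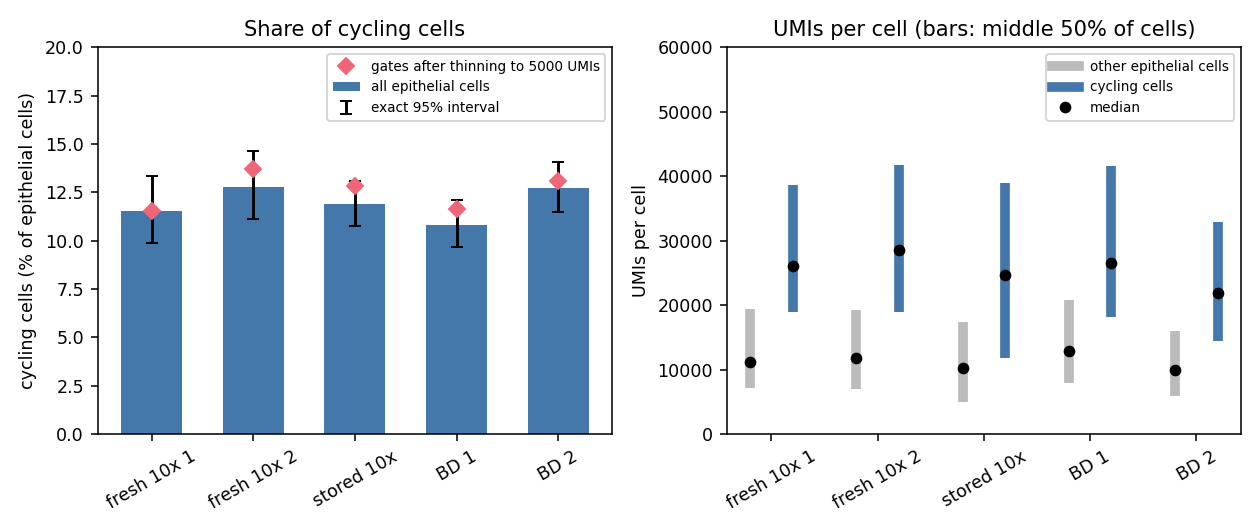
Left, cycling cells in percent of epithelial cells for the 5 libraries, as bars with exact 95% intervals, and as diamonds after thinning to 5000 UMIs; the bars stand between 10.8% and 12.8%. Right, UMIs per cell, with the middle 50% of cells as bars and the median as a point; cycling cells had medians of 21831 to 28625 against 9969 to 12848 in the other epithelial cells.

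The typical cycling cell stood well above the gate, but cells stood on both sides of its edge in every library. The summed level of the 6 gate genes had a median of 18.3, 17.3, 14.4, 18.7 and 18.1 UMIs per 10000 in the cycling cells, lowest in the stored library. Its lower quartile was 12.1, 9.35, 8.31, 9.60 and 9.95 per 10000, against the gate of 5. Between 69.4% and 76.0% of the other epithelial cells had 0 UMIs of the 6 genes. Just inside the gate, at 5 to 6 per 10000, stood 2, 10, 30, 24 and 26 cells, and just outside, at 4 to 5 per 10000, stood 10, 14, 32, 23 and 29. UMIs of all 6 genes were found in 112, 122, 215, 177 and 201 of the cycling cells. Because the gate is a share of UMIs, a shallow cell can pass on 1 UMI, which was so for 4, 5, 19, 0 and 0 cells.

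The 6 gate genes chose these cells, so their levels are given without a test. Ube2c stood at 6.86, 5.99, 5.50, 6.20 and 6.21 UMIs per 10000 in the cycling cells and at 0.0956 to 0.148 in the others. Birc5 stood at 5.61, 4.61, 3.52, 5.23 and 5.28 in cycling cells, lowest in the stored library, and at 0.0945 to 0.135 in the others. Mki67, the marker of dividing cells most used in pathology, stood at 2.73, 2.82, 2.29, 2.58 and 2.66 against 0.0417 to 0.0967. It was detected in 88.2%, 91.3%, 85.0%, 89.1% and 90.7% of cycling cells and in 5.43% to 8.5% of the others; the depth of the 2 classes differed, as given below. At an equal 5000 UMIs the share with Mki67 was 63.6% to 72.3% in cycling cells and 1.57% to 3.77% in the others. The epithelial gate genes were lower in cycling cells than in the others in all 5 libraries, Krt18 for example with 11.8, 12.7, 10.1, 4.84 and 4.45 UMIs per 10000 against 20.3, 21.4, 17.4, 8.60 and 7.24.

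Cycling cells gave more UMIs. Their median UMI count was 26014, 28625, 24659, 26475 and 21831, against 11233, 11738, 10279, 12848 and 9969 in the other epithelial cells. The ratio averaged 2.28 ± 0.156 (SD, n = 5 libraries, range 2.06 to 2.44) and was above 1 in 5 of 5 libraries. The two-sided exact sign-flip permutation test gave p = 0.0625, the smallest that 5 pairs allow. At an equal 5000 UMIs the median cycling cell had 1988, 2012, 1988, 2062 and 1999 genes, against 1844, 1862, 1849, 1883 and 1827 in the others. That difference averaged 156.8 ± 17.5 genes (SD, n = 5). It averaged 95.2 ± 13.6 against the median of other epithelial cells matched to the cycling cells on UMI total within each library. The mitochondrial share of UMIs had a median of 6.33%, 6.79%, 6.43%, 12.5% and 15.2% in cycling cells and 6.72%, 7.55%, 7.49%, 16.0% and 19.9% in the others, so it was lower in 5 of 5 libraries. The mean difference in mitochondrial share was -2.07 percentage points against all others and -0.81 against the matched ones. The sign-flip test again gave its smallest exact p, 0.0625, for genes per cell and for the mitochondrial share. How much doublets, pairs of cells under 1 barcode, contribute to the higher UMI counts was not tested.

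To place the cells along the cycle, 35 DNA synthesis genes (the S list) and 59 mitotic genes (the M list), none of them in the gate, were summed per cell at 5000 UMIs. The median cycling cell had 14.5, 13.5, 11, 10 and 11 UMIs of the S list, against 1 to 2 in the other epithelial cells. For the M list the medians were 24, 25, 22, 25 and 23, against 2 to 3. The M sum was above the S sum in 66.2%, 70.2%, 71.8%, 76.3% and 70.3% of the cycling cells, against 62.9%, 60.4%, 53.7%, 53.1% and 52.0% of the other epithelial cells. The M list holds more genes than the S list, and in fresh 10x 1 the 2 classes were close. The gate holds mainly G2 and mitotic genes, and among the other epithelial cells 0.830% to 2.60% reached the median S sum of the cycling cells of their library. These sums are ranges along a continuum, and cells were not assigned to phases.

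**Figure D3:**
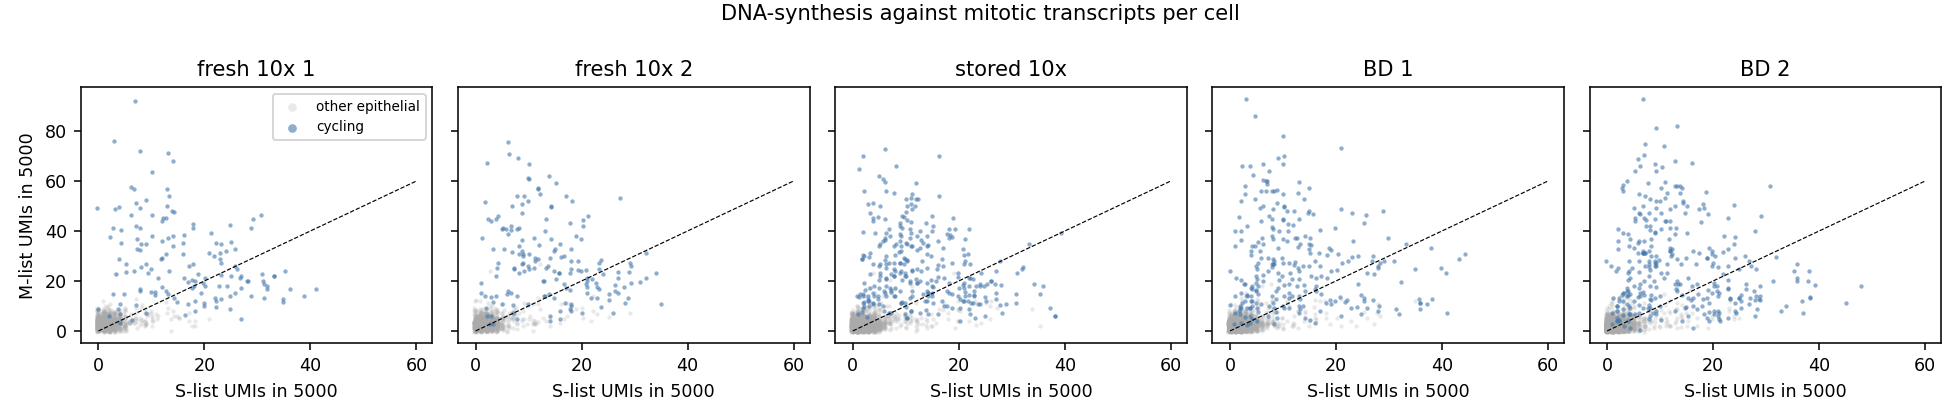
Each point is an epithelial cell thinned to 5000 UMIs, with its S-list UMIs across and its M-list UMIs up (points are shifted by up to 0.3 UMI so that they do not hide each other; the dashed line marks equal sums). Cycling cells spread along both arms in all 5 libraries, and most lay above the line (66.2% to 76.3%), while the other cells gathered near the origin.

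Cells whose S sum was the higher differed from those whose M sum was the higher in genes of neither list too, described here without a test because the same cells were split on related transcripts. Means are given in UMIs per 10000, from cells thinned to 5000 UMIs. Ube2c averaged 1.58, 2.49, 1.67, 0.933 and 1.33 in the S-leaning cells and 9.92, 8.12, 6.66, 7.44 and 8.88 in the M-leaning ones. Top2a differed little by comparison, with 2.46, 2.04, 2.44, 3.87 and 3.22 against 3.22, 2.59, 2.75, 5.01 and 4.01. Hmgb2, a chromatin protein of dividing cells, averaged 8.21, 9.78, 7.79, 4.40 and 6.04 in the S-leaning cells and 12.9, 13.3, 10.7, 7.95 and 9.36 in the M-leaning ones. Ccnd1, the cyclin of G1, was higher in the S-leaning cells in 4 of 5 libraries, with 3.04, 3.07, 3.59, 5.17 and 4.64 against 2.16, 3.17, 2.38, 3.26 and 2.32. The exception was fresh 10x 2.

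Across the transcriptome the cycling cells differed from the other epithelial cells of their library in most genes. UMI counts were summed over each class in each library and compared with edgeR's quasi-likelihood test with library as a block. Of 12734 genes, leaving out the 9 gate genes, 4126 were higher in cycling cells (32.4% of those tested) and 4473 lower (35.1%) at a Benjamini-Hochberg adjusted p under 0.05. Among them 3863 and 3936 went the same way in all 5 libraries. Large rises outnumbered large falls: 177 of the risen genes changed at least 8-fold, against 4 of the fallen genes. Those 4, named after their values were seen, were Jchain, Lrrc36, Mup4 and Mup5, at 0.00314 to 0.0162 UMIs per 10000 in cycling cells by the mean over libraries. For Jchain the fall comes from BD 1 (0.0140 against 0.446 UMIs per 10000): fresh 10x 1 had none in either class, BD 2 was not lower (0.0123 against 0.0118), and neither DESeq2 (adjusted p = 0.55) nor a comparison with other cells matched on UMI total (-0.60, adjusted p = 0.13) called it. Mup5 was not lower in BD 1 (0.0152 against 0.0101). The median log2 difference over all tested genes was -0.05. Genes of the cell cycle travel with the gate genes in the same cells, so their rises describe whom the gate collected and are no separate evidence for it.

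Levels in this comparison are shares of a class's UMIs, and cycling cells had 2.04 ± 0.0815 times as many UMIs per cell by the mean (SD, n = 5). A gene with a lower share can therefore still have more molecules per cell. Of the 4473 genes with a lower share, 2754 had more UMIs per cell in cycling cells in all 5 libraries, and 195 had fewer in all 5. With the other epithelial cells matched one by one on UMI total, 8294 of the 8599 called genes could be tested, 7151 of them kept both call and direction, and 16 took the other sign.

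**Figure D4:**
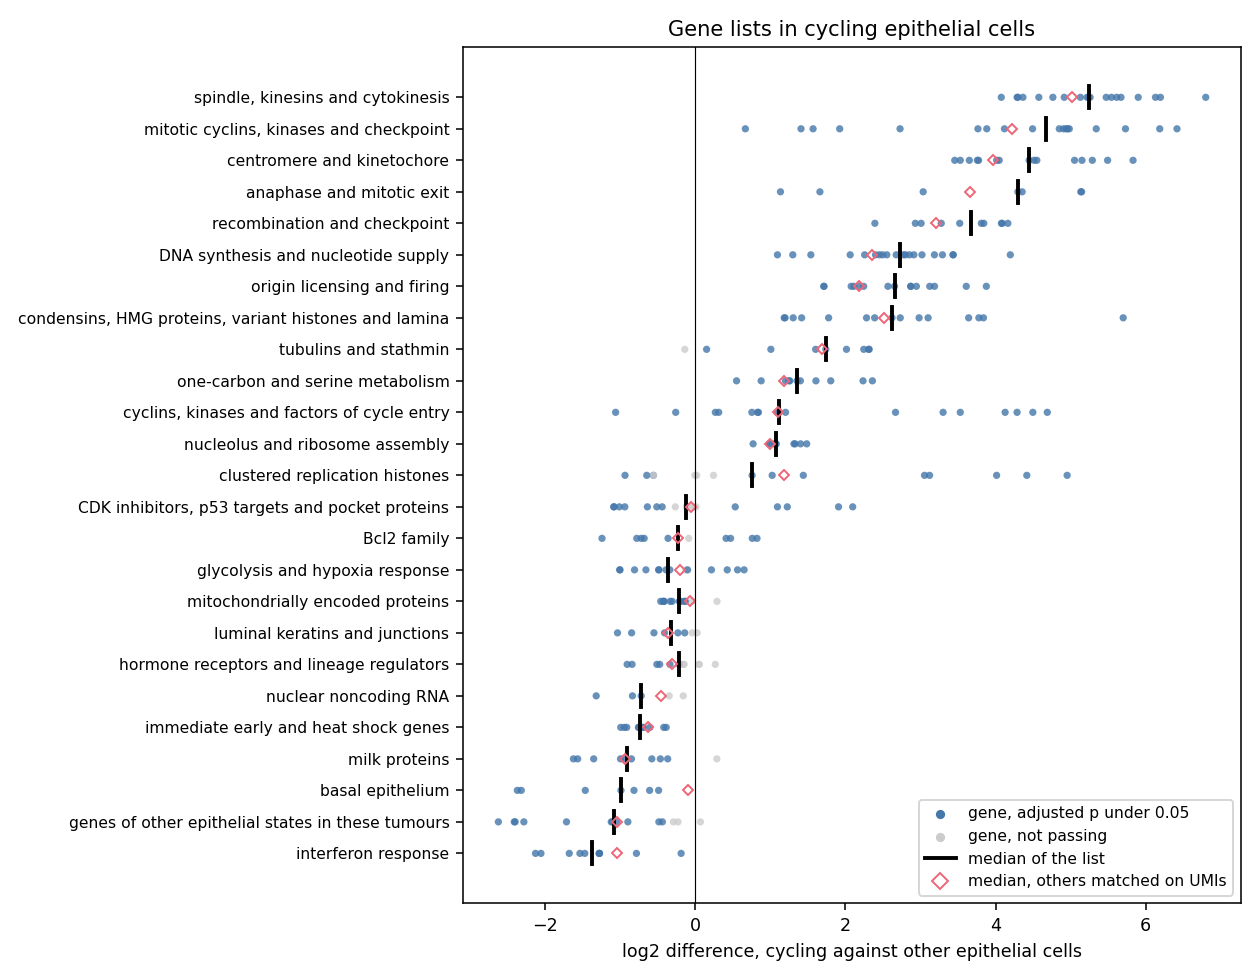
Log2 difference between cycling and other epithelial cells for each tested gene of 25 lists, blue where the adjusted p was under 0.05; the bar is the list median and the open diamond the median against others matched on UMI total. Mitotic lists had medians of 4.30 to 5.24, DNA synthesis and licensing lists 2.65 to 2.72, and the interferon list had -1.38.

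All 15 genes of origin licensing and firing rose, with a median log2 difference of 2.65. These genes load and start the replicative helicase. Mcm5, a subunit of that helicase, stood at 0.935, 0.885, 0.895, 1.30 and 1.43 UMIs per 10000 in cycling cells and at 0.0787, 0.109, 0.133, 0.144 and 0.144 in the others. Its log2 difference was 3.12 ± 0.09 (SE, n = 5, adjusted p = 6.6e-11), and the classes did not overlap. Mcm10, which acts when origins fire, had the largest rise of the list (3.88), and Gins2 and Orc6 the smallest (both 1.71).

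All 20 genes of DNA synthesis and nucleotide supply rose as well (median 2.72). Rrm2, the regulated subunit of ribonucleotide reductase, led them with 2.58, 2.34, 2.07, 2.26 and 2.27 UMIs per 10000 against 0.108, 0.132, 0.137, 0.105 and 0.134 (log2 difference 4.20 ± 0.09 SE, adjusted p = 5.4e-12). Pcna, the sliding clamp, rose by a smaller amount: it stood at 1.03, 0.887, 0.769, 1.32 and 1.38 against 0.222, 0.232, 0.192, 0.319 and 0.295, a log2 difference of 2.06. Slbp, which binds histone mRNA, and Dnmt1, which copies DNA methylation, rose least (1.09 and 1.30). The 10 recombination and checkpoint genes rose with a median of 3.67, among them Brca1 (3.52) and Chek1 (2.93).

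Genes of cycle entry rose less evenly. Of 17 tested, 15 rose and 2 fell, with a median of 1.12. The factors that act in S phase and G2 rose most: E2f8 and E2f7, repressors of E2F targets, by 4.69 and 4.29, Foxm1 by 4.50 and Mybl2, which encodes B-MYB, by 4.13. Ccne1, the cyclin of the G1 to S transition, rose by 3.30. The G1 genes Ccnd1 and Cdk4 rose by 0.84 and 0.75. Ccnd1 stood at 2.38, 3.29, 2.52, 3.64 and 3.01 UMIs per 10000 against 1.14, 1.95, 1.45, 1.93 and 1.73, higher in every library. Myc, a growth regulator, was slightly lower, with 0.288, 0.362, 0.211, 0.375 and 0.447 against 0.359, 0.355, 0.311, 0.441 and 0.492. Its log2 difference was -0.26 ± 0.07 (SE, adjusted p = 0.0079), and in fresh 10x 2 it was not lower. Ccnd2 was the other gene that fell (-1.06, adjusted p = 0.041), at levels of 0.00358 to 0.0304 UMIs per 10000, and DESeq2 did not call it (adjusted p = 0.141).

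The genes that restrain the cycle split, as did the tested genes at large, of which 32.4% rose and 35.1% fell. Of the 17 restraining genes tested, 5 rose, 7 fell and 5 did not pass. The risen ones were Rbl1 (2.10), the p107 pocket protein and itself an E2F target, the CDK inhibitor genes Cdkn2d (1.91), Cdkn2a (1.23) and Cdkn2c (1.09), and Trp53 (0.53). Rb1, the retinoblastoma gene, had a lower share, with 0.268, 0.322, 0.399, 0.525 and 0.472 UMIs per 10000 against 0.652, 0.661, 0.764, 1.16 and 0.929 (log2 difference -1.08 ± 0.06 SE, adjusted p = 1.6e-08). The antiproliferative genes Btg2 and Btg1 fell by 1.09 and 0.94, and the CDK inhibitor gene Cdkn1c by 1.01. Cdkn1a, the p53 target p21, fell by 0.51, but not against the matched cells (log2 difference -0.22, adjusted p = 0.24); nor did Rbl2 (-0.23, adjusted p = 0.077). None of the 7 had fewer UMIs per cell in all 5 libraries, and 3 had more in all 5. Cdkn2c stood at 0.604 in the other epithelial cells of fresh 10x 2 against 0.110 to 0.195 in those of the remaining libraries, so that library alone had no rise (0.516 in its cycling cells).

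Every tested gene of the 4 mitotic lists rose. The 18 mitotic cyclins, kinases and checkpoint genes had a median log2 difference of 4.67. Plk1, a kinase that drives entry into mitosis, stood at 0.562, 0.780, 0.674, 0.830 and 0.872 UMIs per 10000 in cycling cells and at 0.00370 to 0.0120 in the others, a log2 difference of 6.42 ± 0.12 (SE, n = 5, adjusted p = 3.2e-12). Aurkb, the kinase of the chromosomal passenger complex, rose by 6.19, and the mitotic cyclin gene Ccnb1 by 5.34. Ccnb1 hardly varied among libraries, at 1.20, 1.37, 1.29, 1.36 and 1.34 UMIs per 10000 in cycling cells against 0.0259 to 0.0396 in the others. Wee1, which holds Cdk1 back, rose least (0.67), followed by Cks1b (1.41) and Bub3 (1.57).

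The 19 genes of the spindle and cytokinesis rose with a median of 5.24, above the 15 centromere and kinetochore genes (4.45) and the 7 genes of anaphase and exit (4.30). Nusap1, a spindle microtubule protein, had the largest rise of any gene above the level set for naming (0.5 UMIs per 10000 in the higher class). It stood at 0.897, 0.858, 1.14, 1.15 and 1.18 UMIs per 10000 against 0.00581, 0.00973, 0.0134, 0.00925 and 0.00716, about 111-fold (log2 difference 6.80 ± 0.10 SE, adjusted p = 2.2e-12). Hmmr, Tpx2 and the midzone protein gene Prc1 rose by 6.19, 5.67 and 5.61, and the spindle motor gene Kif11 by 5.54. Cenpe and Cenpf, which act at kinetochores, rose by 5.15 and 5.05. Cenpf was the less even across platforms, at 1.56, 1.68 and 1.51 UMIs per 10000 on 10x and 0.929 and 0.945 on BD Rhapsody. Cdc20, which activates the anaphase-promoting complex, stood at 2.31, 2.27, 2.04, 1.73 and 1.66 against 0.0376 to 0.0784 and rose by 5.15.

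Of the 10 genes with the largest rises that stand in none of the lists, most have known roles in division. They were Melk (5.27), Shcbp1 (5.12), Pbk (4.97), Cdca3 (4.54), Pclaf (4.52), Cenph (3.57), Dbf4 (3.25), Gmnn (3.16), Lockd (2.99) and Cenpw (2.98). Pclaf, a partner of PCNA, stood at 4.23, 4.42, 3.55, 3.78 and 4.22 UMIs per 10000 against 0.125 to 0.204. Gmnn encodes geminin, which blocks relicensing of origins, and Dbf4 the activator of the Cdc7 kinase. Lockd is a noncoding RNA gene next to Cdkn1b; it stood at 0.284 and 0.299 in the fresh 10x libraries and at 0.692, 0.623 and 0.658 in stored 10x, BD 1 and BD 2. Cdkn1b itself did not pass the test (log2 difference -0.02, adjusted p = 0.80).

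All 15 genes of condensins, HMG proteins, variant histones and the lamina rose (median 2.62). H2afz, a variant histone gene, stood at 25.4, 24.7, 19.7, 14.5 and 14.5 UMIs per 10000 in cycling cells against 5.13, 5.15, 4.27, 2.78 and 2.83, a log2 difference of 2.28. Its levels were lower on BD Rhapsody in both classes. The condensin gene Ncapg rose by 5.70 and Hmgb2 by 3.84. The clustered replication histones were uneven: of 15 tested, 8 rose, 3 fell and 4 did not pass. Hist1h1b, a linker histone gene, rose by 4.42: it stood at 0.777, 0.780, 0.443, 0.0711 and 0.0699 UMIs per 10000 in cycling cells against 0.0195, 0.0384, 0.0178, 0.00841 and 0.00573, higher in cycling cells within every library and lower on BD Rhapsody in both classes. Hist1h2ap stood at 3.44, 0.706 and 4.35 on 10x and at 0.00350 and 0.00491 on BD Rhapsody. Hist1h2bc, Hist1h4i and Hist1h1c fell (-0.94, -0.65 and -0.56). Histone genes have near-identical copies and mostly lack a poly(A) tail, so single members are uncertain.

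Genes of growth, carbon metabolism and tubulins rose by amounts that differed between genes. All 10 genes of the nucleolus and ribosome assembly rose, with a median of 1.07, for example Nolc1 (1.48) and Npm1 (0.99). The sum of the 10 genes was 43.9, 45.6, 36.5, 45.0 and 46.0 UMIs per 10000 in cycling cells, lowest in the stored library, against 18.6 to 22.5 in the others. All 11 genes of serine and one-carbon metabolism rose too (median 1.36), led by the mitochondrial folate enzymes Mthfd2 (2.36) and Mthfd1l (2.23), with the purine synthesis gene Paics at 0.55. Of 9 tubulin and stathmin genes 8 rose, with Tuba1b at 2.32 and Stmn1 at 2.24, and Tuba1a, at -0.14, did not pass (adjusted p = 0.057). Tubb2a, at 0.15, was not called with matched cells (adjusted p = 0.17) or without the filter on low counts (adjusted p = 0.079).

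Genes of glycolysis and the hypoxia response moved in both directions, as did all tested genes, of which 32.4% rose and 35.1% fell. Of the 14 genes of this list 4 rose and 9 fell, and against matched cells 4 rose and 6 fell. The 4 genes that rose were Pgk1 (0.65), Gapdh (0.56), Eno1 (0.43) and Pkm (0.21), all glycolytic enzymes. The 9 that fell included the hypoxia-responsive Bnip3 (-1.0), Ndrg1 (-0.81) and Vegfa (-0.66), but also the glycolysis genes Aldoa (-1.01), Pfkp and Slc2a1. Aldoa stood at 7.40, 8.07, 7.52, 9.86 and 8.47 UMIs per 10000 against 14.8, 19.1, 13.5, 18.6 and 16.0, with no overlap. Ldha was close to unchanged (-0.10, adjusted p = 0.045). It was not called without TMM scaling (adjusted p = 0.096) or against matched cells (adjusted p = 0.15). Adm and Car9 were not called against matched cells either.

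Milk and secretory genes had lower shares in the cycling cells. Of 10 milk protein genes tested, 9 fell, with a median log2 difference of -0.91, and the same number fell against matched cells. Csn3, kappa-casein, stood at 105, 119, 122, 134 and 139 UMIs per 10000 against 141, 163, 160, 189 and 188 (log2 difference -0.47 ± 0.03 SE, adjusted p = 8.4e-08). Per cell, Csn3 nevertheless had more UMIs in cycling cells, 321.4, 405, 347, 418 and 338 against 217, 256, 224, 299 and 228. Wfdc18, a small secreted protein gene, fell further, from 63.9, 51.2, 107, 95.7 and 79.8 UMIs per 10000 in the others to 20.8, 18.9, 44.3, 44.9 and 33.7 (log2 difference -1.35). Wfdc18 and Btn1a1, which coats milk fat globules, also had fewer UMIs per cell in all 5 libraries. Glycam1 was the gene that did not pass: it stood at 4.31 in cycling cells of fresh 10x 1 and at 0.369 to 0.964 in those of the other libraries.

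The largest falls above the naming level were Ly6d (-2.62), Fcgbp (-2.42), Npy (-2.40), Clic6 (-2.03), Ramp1 (-1.97), Bglap3 (-1.96), Cp (-1.92), 1500015O10Rik (-1.88), Igfbp5 (-1.72), Spp1 (-1.72), Nupr1 (-1.63), Btn1a1 (-1.62), Plekhf1 (-1.62), Klhdc7a (-1.61) and Ltf (-1.58). Igfbp5, a secreted binding protein of insulin-like growth factors, stood at 15.7, 13.2, 19.9, 24.3 and 21.3 UMIs per 10000 in cycling cells and 51.9, 46.3, 53.7, 77.8 and 75.7 in the others (log2 difference -1.72 ± 0.06 SE, adjusted p = 2.2e-10). Spp1, osteopontin, stood at 37.9, 38.2, 34.8, 11.0 and 5.83 against 147, 92.6, 101, 33.1 and 25.3. Ly6d, a surface protein, stood at 0.170, 0.175, 0.307, 0.0758 and 0.168 against 1.72, 1.85, 1.06, 0.605 and 0.660. For these 3 genes the classes were apart within every library, and UMIs per cell were lower too in all 5. Spp1 also differed by platform: the other epithelial cells of the BD libraries stood below the cycling cells of the 10x libraries.

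Genes that mark particular states of the tumour epithelium were among the falls. Of 14 such genes, a list drawn up from these same libraries and so no independent evidence, 11 fell and 0 rose (median -1.08). They included Cck (-2.41), Pip (-2.28), Foxi1 (-1.12), Tspan8 (-1.10), Saa1 (-0.90) and Lcn2 (-0.49). Pip was uneven, at 0.353 in cycling cells of fresh 10x 1 against 0.287 in the others there, and lower in cycling cells of the other 4 libraries. Arg1, Saa2 and Aldh1a3 did not pass.

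Lineage genes changed less. Of 12 hormone receptor and lineage genes tested, 6 fell and 6 did not pass: Sox9 (-0.91), Kit (-0.84), Ehf (-0.51), Gata3 (-0.47), Sox10 (-0.34) and Elf5 (-0.22), most of them marks of luminal progenitor or alveolar identity, had lower shares. Elf5, a regulator of the alveolar lineage, stood at 3.12, 4.24, 3.0, 5.14 and 4.83 UMIs per 10000 against 4.18, 4.14, 3.5, 5.78 and 5.54, and was not lower in fresh 10x 2. Of 8 luminal keratin and junction genes 6 fell, among them Krt7 (-1.04) and Cldn4 (-0.85), while Krt19 was near equal (0.02, adjusted p = 0.73). All 7 basal genes fell (median -0.99), but against matched cells only 6 could be tested and 1 fell. The other 5 tested there (Krt5, Krt14, Krt15, Krt17 and Trp63) were not called. In that comparison the list median was -0.10 and Krt15 had the opposite sign (0.57, adjusted p = 0.18).

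Interferon-response and immediate early genes had lower shares too. All 10 interferon-response genes fell (median -1.38), 9 of them also against matched cells. Irf7, a regulator of the response, stood at 0.215, 0.175, 0.245, 0.240 and 0.137 UMIs per 10000 against 0.722, 0.903, 0.656, 0.443 and 0.340 (log2 difference -1.54 ± 0.15 SE, adjusted p = 2.9e-06), lower in every library. All 10 immediate early and heat shock genes fell, also against matched cells, with a median of -0.73. Such genes are induced when tissue is dissociated. Fos stood at 23.7, 26.5, 24.1, 22.0 and 19.1 against 43.3, 44.7, 35.7, 33.0 and 30.3, and Jun at 14.4, 21.0, 13.6, 13.3 and 11.9 against 26.1, 35.1, 23.9, 19.9 and 19.0. Per cell, Fos had more UMIs in cycling cells in all 5 libraries when set against all other epithelial cells, whose UMI totals were lower. Against other cells matched on UMI total its share was lower in cycling cells.

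**Figure D5:**
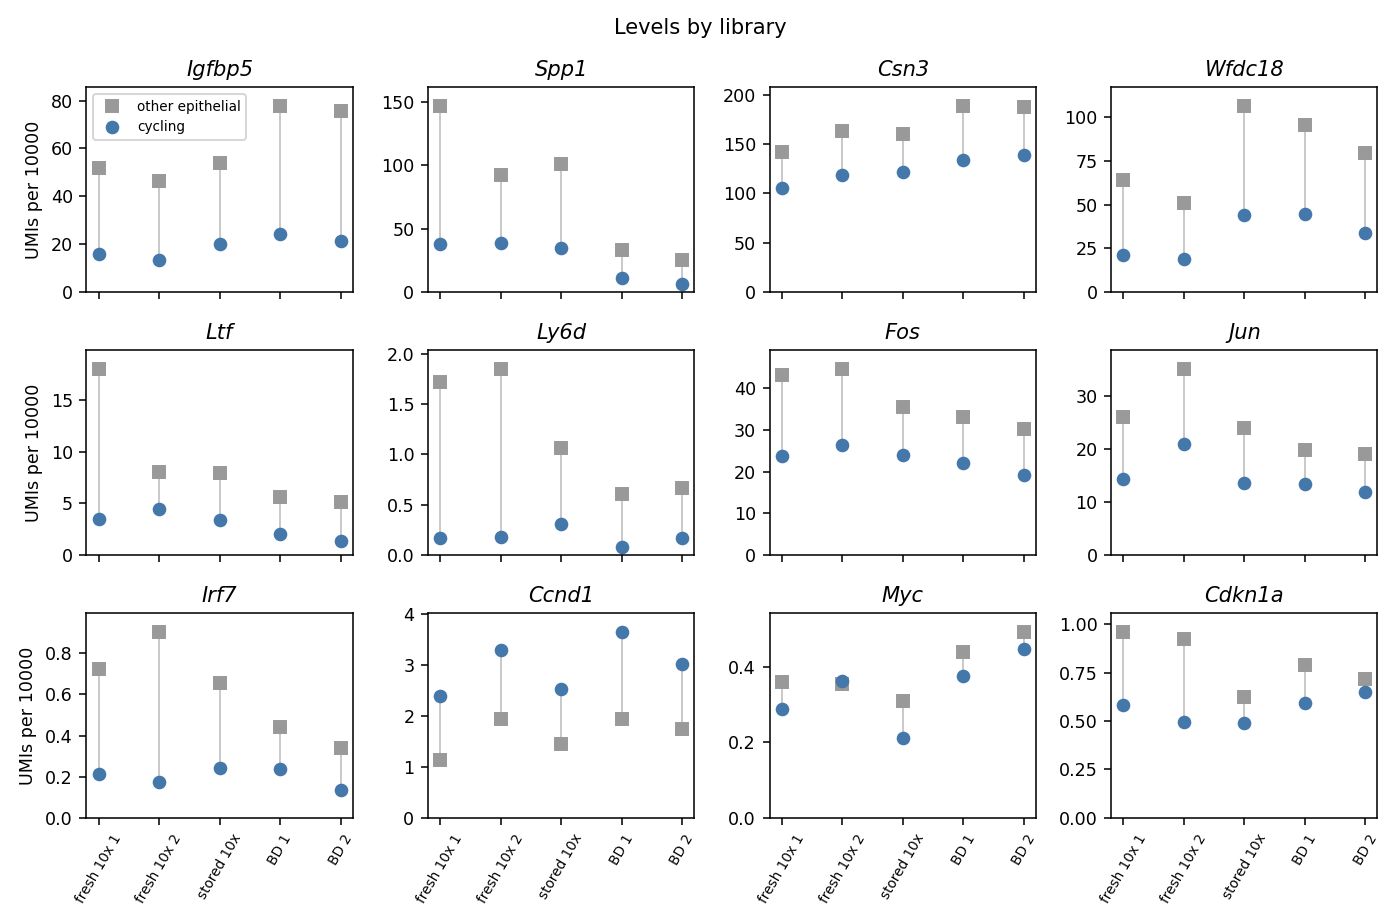
UMIs per 10000 in cycling cells (circles) and other epithelial cells (squares) of each library for 12 genes, with a line joining the classes of a library; every vertical axis starts at 0. The circles lie below the squares in all 5 libraries for 10 of the 12 genes, above them for Ccnd1, and above in fresh 10x 2 alone for Myc.

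Survival genes were mixed, as were the tested genes at large, of which 32.4% rose and 35.1% fell. Of 10 members of the Bcl2 family 4 rose and 5 fell. The proapoptotic Bid (0.76), Bak1 (0.47) and Bax (0.41) rose, whereas the antiapoptotic Bcl2 (-1.24), Bcl2l1 (-0.78) and Mcl1 (-0.36) fell, as did the BH3-only genes Bbc3 (-0.72) and Bcl2l11 (-0.68). Bcl2 stood at 0.191, 0.323, 0.279, 0.185 and 0.169 UMIs per 10000 against 0.470, 0.713, 0.640, 0.412 and 0.437, and was lower per cell as well in all 5 libraries. Pmaip1, at 0.00596 to 0.0282 UMIs per 10000, rose by 0.82 but was not called against matched cells (adjusted p = 0.24) or by DESeq2 (adjusted p = 0.10).

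Of 5 nuclear noncoding RNAs tested, 3 had lower shares. Malat1 stood at 47.5, 56.4, 96.2, 6.23 and 7.42 UMIs per 10000 against 110, 137, 220, 15.7 and 20.5 (log2 difference -1.32 ± 0.04 SE, adjusted p = 2.0e-10). Neat1 fell by 0.84 and Xist fell too, while Kcnq1ot1 and Meg3 did not pass. Of the 13 mitochondrially encoded genes 11 fell, by 0.13 to 0.46, and all 11 had more UMIs per cell in cycling cells in all 5 libraries. Against matched cells 5 of the 13 fell and 1, mt-Nd6, rose (0.52).

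Few markers of other cell types rose in the cycling class, and their part in the results above was not tested. All 6 fibroblast genes fell (median -0.70), summing to 0.549 to 2.24 UMIs per 10000 in cycling cells and 0.743 to 4.07 in the others. Of 7 macrophage genes C1qa (0.62, adjusted p = 0.013) and C1qb (0.59, adjusted p = 0.016) rose, but neither was called by DESeq2 (adjusted p = 0.053 and 0.056) or against matched cells (0.18 and 0.13). The macrophage sum was 0.0669, 1.07, 1.08, 0.480 and 0.305 in cycling cells against 0.173, 0.750, 0.392, 0.412 and 0.417, higher in 3 libraries and lower in 2. Csf1r and Ptprc had 0 UMIs in the cycling cells of fresh 10x 1. Lymphocyte genes summed to 0.0183 to 0.308 in cycling cells and 0.0225 to 2.26 in the others, neutrophil genes to 0.427 to 2.04 against 0.322 to 0.967, endothelial genes to 0.0245 to 0.0825 against 0.0208 to 0.211, and mural genes to 0.130 to 0.329 against 0.210 to 0.529. The neutrophil sum was nearly all S100a8: the cycling cells held 3365 UMIs of it, 25 of S100a9, 7 of Csf3r and 3 of Retnlg. Of the lymphocyte, neutrophil, endothelial and mural genes, Igkc, Jchain, S100a9 and the mural gene Notch3 fell and none rose. Igkc, Jchain and S100a9 were not called by DESeq2. Against matched cells Igkc turned sign (0.13, adjusted p = 0.40), Jchain was not called (-0.60, adjusted p = 0.13), S100a9 was not tested, and Notch3 was lower (-0.58, adjusted p = 5.5e-04). Leaving out cells rich in these markers gave 4079 higher and 4331 lower genes.

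Few genes passed a test for a cycling difference that differed between platforms. An interaction term asked, gene by gene, whether the difference was another in the 2 BD Rhapsody than in the 3 10x libraries, and 3 of 12734 genes (0.0236%) passed, against 1121 at an unadjusted p under 0.05. Bc1 and Rcc1 were among them; they were below the naming level and were singled out after their values were seen. Without BD 1 0 genes passed, without BD 2 1 gene, and without fresh 10x 2 11 genes, so the count rests on few libraries. A difference that did not pass is not shown to be equal on the platforms.

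Storage could be set side by side only, with 1 stored library. Within cycling cells, the gate genes summed to a median of 14.4 UMIs per 10000 in stored 10x against 18.3 and 17.3 in the fresh 10x libraries. The median UMI count was 24659 against 26014 and 28625. The M sum was the higher in 71.8% of the cells against 66.2% and 70.2%. The spindle genes summed to 11.3 UMIs per 10000 against 12 and 11.9, the DNA synthesis genes to 18.5 against 23.0 and 19.7, and the immediate early genes to 77.1 against 78.0 and 95.4. In each of these 6 measures except the M share the stored library had the lowest value of the 3, by margins that its lack of a replicate does not allow to be judged. Other sums were highest in the stored library. Tubulin and stathmin genes summed to 32.1 UMIs per 10000 against 31.7 and 29.3, milk protein genes to 206 against 160 and 187, and nuclear noncoding RNAs to 126 against 74.9 and 77.8.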

How the data were processed

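Single-cell RNA-seq was measured in 5 libraries of PyMT mammary tumours. The authors deposited matrices of raw UMI counts per gene and cell, with the cells already selected. Per the submitters' processing notes, Cell Ranger 3.0.1 and build mm10 were used; the tool for the BD Rhapsody libraries is not given in the sources used here. A pooled fresh matrix and subset matrices of BD 1 were not used. Spellings of the same gene symbol were merged, leaving 41028 names. No further filter on cells and no doublet caller was applied.

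The gates, gene lists and members were chosen with earlier results of these data known. UMI counts were summed per library over cycling and over other epithelial cells and tested with edgeR 4.0.16 (TMM, filterByExpr, quasi-likelihood test, library as a block) in R 4.3.3, with Benjamini-Hochberg adjustment over 12734 genes and a threshold of 0.05. The 9 gate genes stayed in the library sizes but were not tested. The procedure was tried on simulated data in which 100 of 12734 genes changed 2-fold and 100 changed 1.5-fold. It recovered 90.9% and 76.5% of these and called 0.153% of the unchanged genes. The real comparison called 8599 genes, so the simulation does not show how the procedure does under so broad a change. Cells were thinned to 5000 UMIs where depth mattered, and others were matched to cycling cells within 1 library on UMI total. Shares have exact 95% binomial intervals, and per-library differences an exact sign-flip test.

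Genes named are, among those with adjusted p under 0.05, the same direction in all 5 libraries and at least 0.5 UMIs per 10000 in the higher class, the 15 largest rises, the 15 largest falls and the 10 largest rises in no list; for the platform term, the 5 largest each way; and any gene of the 34 lists. Some genes that these rules name are not reported here. Alternatives were DESeq2 1.42.0, no TMM, no filter on low counts, no library block, each library left out, matched others, other gates and filters on cells. Promoter windows came from the RefSeq table (GRCm38.p6), matched by symbol.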

Additional observations from a re-analysis of the deposited data

Results flagged for a closer look

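For Bc1 and Rcc1 the difference between cycling and other epithelial cells was not the same on the 2 platforms by the interaction test of edgeR. Bc1, a short noncoding RNA, stood at 0.0649, 0.109 and 0.0915 UMIs per 10000 in 10x cycling cells against 0.162, 0.208 and 0.193 in the others, and at 0.148 and 0.135 against 0.0721 and 0.0755 on BD Rhapsody, a platform difference of 2.01 on the log2 scale (adjusted p = 0.0049). Rcc1, a chromatin exchange factor for Ran, rose on both platforms but less on BD Rhapsody, with a platform difference of -1.41 (adjusted p = 0.012): it stood at 0.391, 0.312 and 0.287 against 0.0723, 0.0671 and 0.0757 on 10x, and at 0.527 and 0.624 against 0.281 and 0.406 on BD Rhapsody.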

How the results depend on the processing

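The count of genes that differed between cycling and other epithelial cells ranged from 6479 to 9044 over 16 alternatives, all within 1.5 times of 8599, and was 3650 with no replicate block, that is, without library as a term. Leaving out 1 library gave 7948 to 8459. The named genes kept direction and call in 661 values under alternatives; 2 values lost the call, both without the block, among them that of Spp1 (adjusted p = 0.080). The platform count of 3 became 18 with DESeq2, 250 without the filter on low counts, 15 with matched others, 7 at a gate of 3 UMIs per 10000, 0 at an epithelial gate of 30, and 0 to 11 with 1 library left out. The share of cycling cells depends on the gates: at a cycling gate of 10 it was 9.31%, 9.30%, 7.84%, 8.03% and 9.53%, and at an epithelial gate of 30 it was 9.88%, 11.0%, 8.23%, 7.13% and 7.14%. Keeping cells with at most 20% mitochondrial UMIs moved it to 13.0% in BD 1 and 17.1% in BD 2, where 31.4% and 49.2% of the other epithelial cells and 15.3% and 28.4% of the cycling cells were above that limit. In 18 of 30 alternatives the share stayed within its interval. The mean UMI ratio has no interval, and in 4 of 4 alternatives it moved by less than its SD across libraries. No paired analysis was possible beyond the library block because the replicate numbers do not join samples across groups. Depth limits low genes: Ccnd2, at 0.00358 to 0.0304 UMIs per 10000, had an SE of 0.42.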
